A study of Homo sapiens with 5 samples.

Results

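Reh is a cell line of pro-B lymphoblastic leukaemia, and 644 strong sites of open chromatin were listed in it and in none of 4 other B-lineage lines. The peaks of all 5 lines on chromosomes 1 to 22 had been joined wherever they shared at least 1 bp, which gave 58006 merged regions. A region was kept when its peaks came from the Reh list alone and its highest score reached the 75th percentile of that list, a score of 3792. The regions were thus chosen by the presence of peaks in the 5 lists and by the Reh score, and both are given below as a description, with no test. Of the 6678 Reh regions at or above that score, the 644 make up 9.64% (exact Clopper-Pearson 95% interval 8.95 to 10.4, counting error only).

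The study mapped DNase I hypersensitive sites in L1236, L428 and L591, which are Hodgkin lymphoma lines, and in Reh and Namalwa, which its labels group as non-Hodgkin lines. Namalwa is a Burkitt lymphoma line. All 5 were cultures at passage 7 with no drug treatment or genetic change given in the labels, and nuclei of Reh, L428 and L1236 had been digested with DNase I at 6 U/ml, those of Namalwa and L591 at 12 U/ml. Each line gave 1 library and 1 peak list, so there is no replicate error for any value here and no test between lines. The lists hold no read counts, so the depth is unknown, and a region missing from a list is not shown to be closed in that line.

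DNase I cuts DNA where nucleosomes have been displaced, and such sites mark promoters, enhancers and insulators. Promoter sites tend to be open in many cell types, whereas distal sites differ more between cell types and stages. A pro-B cell stands at an early stage of B cell development, when the immunoglobulin heavy chain locus is being rearranged. Reh is known for the fusion of ETV6 on chromosome 12 with RUNX1 on chromosome 21, both of them transcription factors of blood cell development. Regions are given below by their position in hg18, the genome build of the lists, without genes or bases, since no annotation of that build was used.

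The Reh-alone regions belonged to the lower ranks of the strong Reh sites. Scores, which are the authors' peak areas, ran from 3792 to 15256 with a median of 4712, and the median percentile within the Reh list was 80.5. From the 75th to the 80th percentile, 298 of 1307 Reh regions (22.8%) were found in Reh alone. The share was 14.7% (197 of 1343) from the 80th to the 85th percentile and 7.62% (104 of 1364) from the 85th to the 90th. It was 2.95% (40 of 1357) from the 90th to the 95th percentile. Above the 95th percentile only 5 Reh-alone regions were left, and none of the 233 regions above the 99th percentile was Reh alone, which allows a share of up to 1.29% (3 counts, counting error only). Every Reh region above the 99th percentile thus had a peak in at least 1 other line, and 497 shared regions scored above the leading Reh-alone region.

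**Figure D1:**
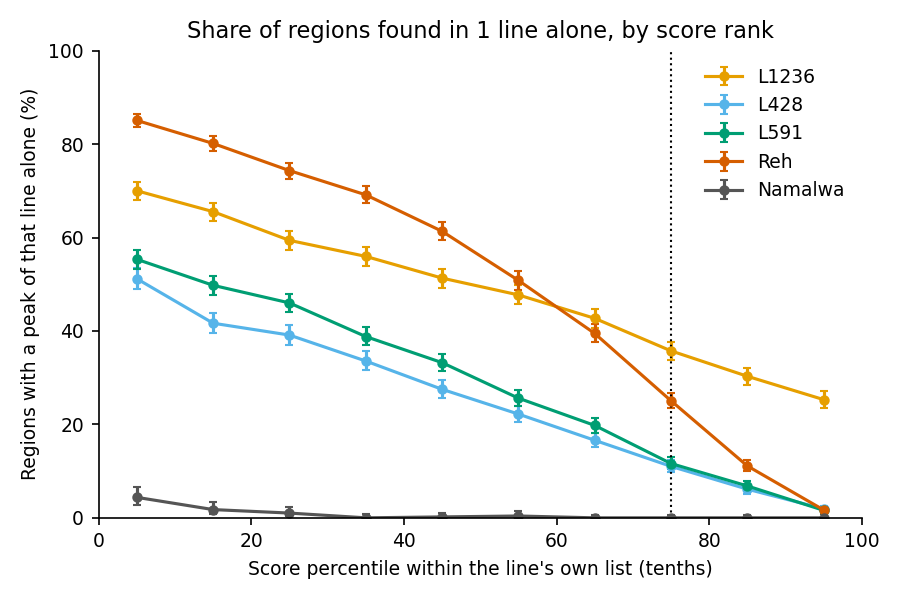
The x axis is the score percentile of a region within a line's own list, in steps of 10, and the y axis is the percentage of regions with a peak of that line alone; bars are exact 95% intervals (counting error only) and the dotted line is the 75th percentile. The Reh curve falls from 85.1% in the lowest step to 1.69% in the highest, whereas L1236 ends at 25.3%.

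The same rule was applied to every other line as a comparison. In L1236, 1777 of 6155 strong regions (28.9%) were found in that line alone. L428 had 283 of 5487 (5.16%) and L591 had 344 of 6397 (5.38%). Namalwa had 0 of 1267 (0.0%), which allows a share of up to 0.237%. Its list held 5643 peaks on these chromosomes, against 22758 to 27502 in the other 4. Reh therefore lay between L1236 and the other 2 Hodgkin lines. Counted without rank, 49.1% of all Reh regions (12641 of 25726) and 48.0% of all L1236 regions were found in 1 line alone, but Reh had the larger share at the lower ranks and L1236 at the upper ranks. The L1236 list alone lacks a mark of quality trimming that the others carry, and its part in this difference was not tested. The 3 lines digested at 6 U/ml, L1236, Reh and L428, gave 28.9%, 9.64% and 5.16%. Whether the DNase I concentration had a part in the differences between lines was not tested, since each line gave 1 library.

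The Namalwa list decided more of the Reh count than any Hodgkin list did. With Namalwa left out, 1024 of 6679 strong Reh regions (15.3%) had no peak elsewhere, since 380 strong regions were shared by Reh and Namalwa and by no Hodgkin line. Leaving out L591 gave 860, L428 727 and L1236 724. The L1236 share was 28.9% without Namalwa too, and the L428 and L591 shares were 5.16% and 5.41%. At the other end, 2787 strong Reh regions (41.7%) had a peak in every line.

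Every Reh-alone region consisted of 1 Reh peak, with a median width of 630 bp and a range of 280 to 2090 bp, against a median of 660 bp for strong shared Reh peaks. Only at like rank were the Reh-alone peaks the wider ones. As the score is the peak area, a greater width at like score is the same trait as a lower score per bp. Between the 75th and 80th percentile the median width was 570 bp in Reh-alone peaks and 510 bp in shared ones. From the 90th to the 95th percentile the medians were 1060 bp and 750 bp. The median score per bp was 7.72 in strong Reh-alone peaks and 10.6 in strong shared peaks. These are medians over all strong peaks and not at equal score, since the median scores were 4712 and 6896.

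The leading regions differed in how close other peaks lay. The highest score, 15256, belonged to chromosome 1 at 159760191 to 159762140, a peak of 1950 bp at percentile 98.004. Another Reh peak began 30 bp away from it and a Namalwa peak lay at 220 bp, while the Hodgkin lines had their nearest peaks at 4600 to 4930 bp. The next score, 14288, was on chromosome 17 at 33359021 to 33361110, which at 2090 bp was the widest Reh-alone region. It had a Reh neighbour at 10 bp, a Namalwa peak at 1060 bp, an L1236 peak at 3130 bp and an L428 peak at 7430 bp, while the nearest L591 peak was 75770 bp away.

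A region on chromosome 20 at 62179031 to 62180290 scored 12696, and the peaks nearest to it from other lines were 10950 to 41720 bp away. A region on chromosome 16 at 87227421 to 87228540, with a score of 11848, stood on its own. The nearest Reh peak was 14740 bp away, and the other 4 lines had their nearest peaks at 16210 to 16840 bp. On chromosome 11 a region at 64655881 to 64657220 scored 10776 and had peaks of all 4 other lines at 1140 to 1640 bp. These regions are of different kinds by their surroundings, some at the edge of chromatin that is open in several lines and some apart from it.

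The remaining 10 of the 15 highest scores lay between 9280 and 10392. Chromosome 19 held 5 of the 15, at 55610201 to 55611250, 33814731 to 33815820, 41470571 to 41471890, 59827651 to 59828840 and 41456831 to 41458070. Chromosome 14 held 2, at 22426111 to 22427490 and 90909861 to 90911310. The others were at 19250571 to 19251520 of chromosome 15, at 101921491 to 101922830 of chromosome 7 and at 107553121 to 107554360 of chromosome 12. Of the 15, 13 had another Reh peak within 2 kb and 10 had a peak of another line within 2 kb.

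Most strong Reh-alone regions had another Reh peak close by. Another Reh peak lay within 2 kb of 416 of the 644 (64.6%, 60.8 to 68.3), with a median distance of 600 bp. Among the 6241 strong Reh peaks shared with another line the share was 49.7% (48.4 to 50.9) and the median distance 2120 bp. Reh-alone peaks under the score threshold lay between, at 51.9% and 1720 bp. Reh-alone peaks had the larger share in each step of score rank. From the 75th to the 80th percentile, 63.8% of Reh-alone and 47.9% of shared peaks had such a neighbour, and from the 85th to the 90th the shares were 61.5% and 49.1%. L1236 gave much the same values, with 69.6% of its 1777 strong L1236-alone peaks within 2 kb of another L1236 peak against 48.5% of its shared ones. In L428 and L591 the strong peaks found in 1 line had shares of 41.0% and 40.7%, against 39.2% and 35.3% of their shared peaks, so the crowding is not shown to be particular to Reh. It also depended on the lists and on the joining of peaks. With the 5 lists reduced to equal length, the shares were 17.9% of Reh-alone regions and 14.03% of strong shared peaks. With peaks up to 1000 bp apart joined, the order turned, at 50.4% of Reh-alone regions and 51.0% of strong shared peaks.

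**Figure D2:**
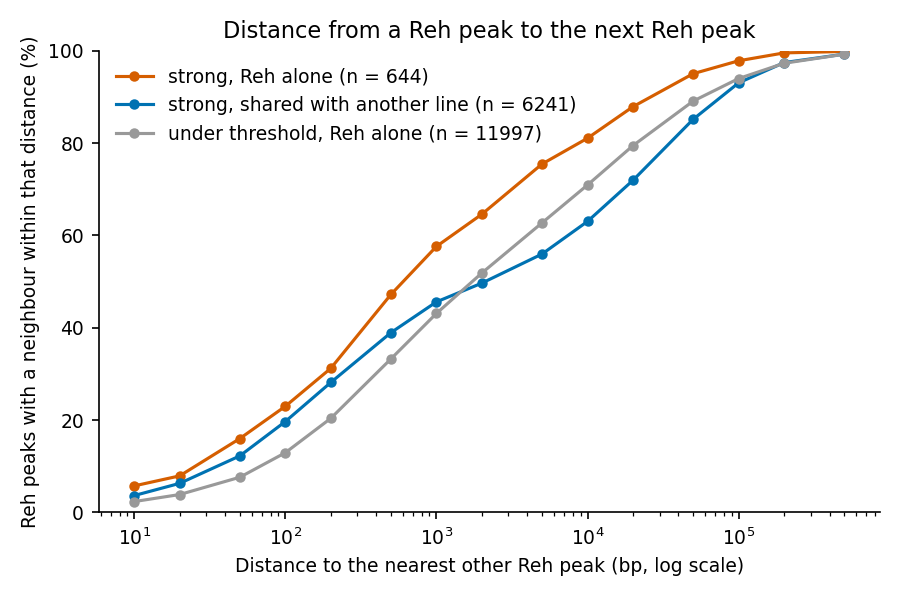
The x axis is the distance from a Reh peak to the nearest other Reh peak (bp, log scale) and the y axis is the percentage of peaks with a neighbour within that distance, for 3 sets of Reh peaks. The strong Reh-alone curve lies above the other 2 at each plotted distance from 10 bp to 200000 bp; within 10 kb it reaches 81.1%, against 63.0% for strong shared peaks.

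Where a neighbour lay within 2 kb, the nearest Reh peak was in a Reh-alone region in 322 of 416 cases (77.4%). Of all Reh regions 49.1% were Reh alone, but that is not a comparison at like score rank. The nearest peak had the higher score in 75 of the 416 cases (18.0%). The rule chose the regions for a high score (median percentile 80.5), so a low value here is not a finding about the neighbours. The Reh-alone share of Reh regions was 85.1% up to the 10th percentile and 61.3% from the 40th to the 50th. Whether 77.4% exceeds the share at like rank was not tested. In 148 cases the neighbour was within 100 bp. The regions fell into 3 kinds by their surroundings. A peak of another line lay within 2 kb of 177 (27.5%), a Reh peak but none of another line within 2 kb of 251 (39.0%), and no other peak of any list within 2 kb of 216 (33.5%). Only 102 (15.8%) had no peak of any list within 10 kb. When peaks up to 1000 bp apart were joined before the rule was applied, 450 Reh-alone regions were left in place of 644.

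Peaks of the other lines were common in the wider neighbourhood. At least 1 lay within 10 kb of 351 regions (54.5%, 50.6 to 58.4), against 62.6% for strong shared Reh peaks, whose overlapping peaks were not counted. L591 had a peak within 10 kb of 33.7% of the regions, Namalwa of 32.3%, L428 of 30.6% and L1236 of 22.98%. Within 2 kb the order began with Namalwa, at 106 regions (16.5%), followed by L591 with 80 (12.4%), L428 with 62 (9.63%) and L1236 with 50 (7.76%). Within 200 bp Namalwa and L591 had a peak at 17 regions each. L591 was the line of the nearest other peak for 282 regions and Namalwa for 152.

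A few regions were far from any peak of another line. The farthest, on chromosome 3 at 35680911 to 35681520, had a score of 5768 and the nearest other line, L591, 983590 bp away. A region on chromosome 8 at 3091981 to 3092550 was 360870 bp from an L428 peak and 3460340 bp from a Namalwa peak. A region on chromosome 2 at 161268731 to 161269380 was 285870 bp from any other line and 116180 bp from the next Reh peak, so it was isolated in every list. The region at 5180801 to 5181380 of chromosome 1 was 257150 bp from the next peak of another line, and that at 100250261 to 100250800 of chromosome 14 was 242080 bp.

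Runs of Reh peaks were defined, after the data had been seen, as peaks spaced by at most 2 kb. Of strong Reh peaks that had no such neighbour, 6.77% were Reh alone (228 of the regions). The share was 10.5% in runs of 2 to 4 peaks, 16.1% in runs of 5 to 9 and 18.6% (14.3 to 23.6) in the 41 runs of 10 or more, which held 53 of the regions. Without the richest of these runs, on chromosome 19, the last share was 12.1% (31 of 257, 8.34 to 16.7), under that of runs of 5 to 9. The 644 regions lay in 571 separate runs, of which 532 held just 1, so the long runs concern few of them. Of the 416 regions in runs of 2 or more peaks, 214 (51.4%) were in runs where every Reh peak was Reh alone.

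The richest run lay on chromosome 19 at 41451131 to 41492790. It held 56 Reh peaks over 41660 bp, covering 78.4% of that length, and 22 of them were strong Reh-alone regions. Their scores ran from 3808 to 9576 with a median of 6172, and their widths from 450 to 1320 bp. L1236 and L591 had no peak there, L428 had 2 and Namalwa had 9, at percentiles 1.52 to 72.1 of its own list. The highest Reh score of the run, 12928, was at a peak shared with L428. Whether reads can be placed uniquely in hg18 along this run, or along the chromosome 8 run described next, was not tested.

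**Figure D3:**
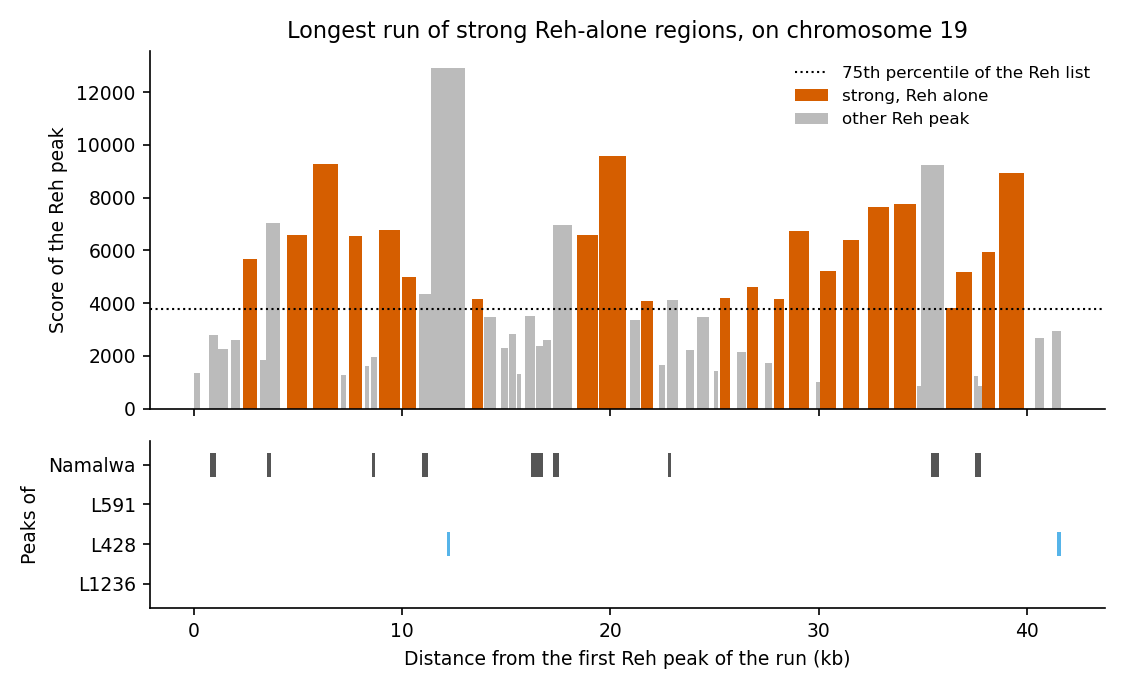
The upper panel plots the score of each Reh peak against its distance (kb) from the first Reh peak of the chromosome 19 run, with the 22 strong Reh-alone regions in orange, other Reh peaks in grey and the 75th percentile as a dotted line. The lower panel marks the peaks of the other lines on the same axis: 9 in Namalwa, 2 in L428 and none in L1236 or L591.

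Other long runs differed in how much the other lines shared. On chromosome 8 at 86851471 to 86909990, 78 Reh peaks included 8 of the regions, but L428 and L591 had 15 peaks each there, Namalwa 15 and L1236 6. On chromosome 19 at 42451481 to 42486440, 42 Reh peaks included 4 of the regions, beside 3 peaks in Namalwa, 1 each in L428 and L591 and none in L1236. On chromosome 11 at 2361231 to 2369220 and on chromosome 14 at 99104501 to 99111830, all Reh peaks of the run (11 and 8) were Reh alone, with 3 of the regions in each. A run on chromosome 17 at 76838671 to 76840630 held 3 peaks, all of them strong and Reh alone, over 1960 bp.

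In windows of 1 Mb the regions were spread over 371 windows, of 1613 that held any strong Reh region. Most of those windows, 246, had a single one, while 15 windows had 5 or more and together held 110 regions (17.1%). Chromosome 19 from 41 to 42 Mb came first with 24, of which 22 were in the run just described. It held 80 Reh regions, 20 in L428, 20 in L591, 18 in Namalwa and 13 in L1236. Chromosome 8 from 86 to 87 Mb followed with 10 regions, all in runs of 10 or more peaks, among 110 Reh regions against 10 to 27 in the other lines. Its highest-scoring one was at 86867921 to 86869070, with a score of 9048.

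Windows further down did not all share this pattern. Chromosome 19 from 55 to 56 Mb had 7 regions, led by the one at 55610201, but 97 L1236 regions against 59 in Reh. Chromosome 1 from 44 to 45 Mb also had 7, with 35 Reh regions and 11 to 23 in the other lines, and its leading region at 44091571 to 44092260 scored 4792. Chromosome 19 from 2 to 3 Mb had 7 among 78 Reh regions, led by 2615001 to 2615720 with a score of 9168. Chromosome 7 from 1 to 2 Mb had 6 among 95 Reh regions and 8 to 17 in the other lines, led by 1511601 to 1512660 with 8880. Another 4 windows also had 6 regions, on chromosome 7 from 101 Mb, chromosome 14 from 90 Mb and from 105 Mb, and chromosome 19 from 42 Mb. Copy number, which these lists do not measure, and accessibility cannot be told apart in such windows.

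**Figure D4:**
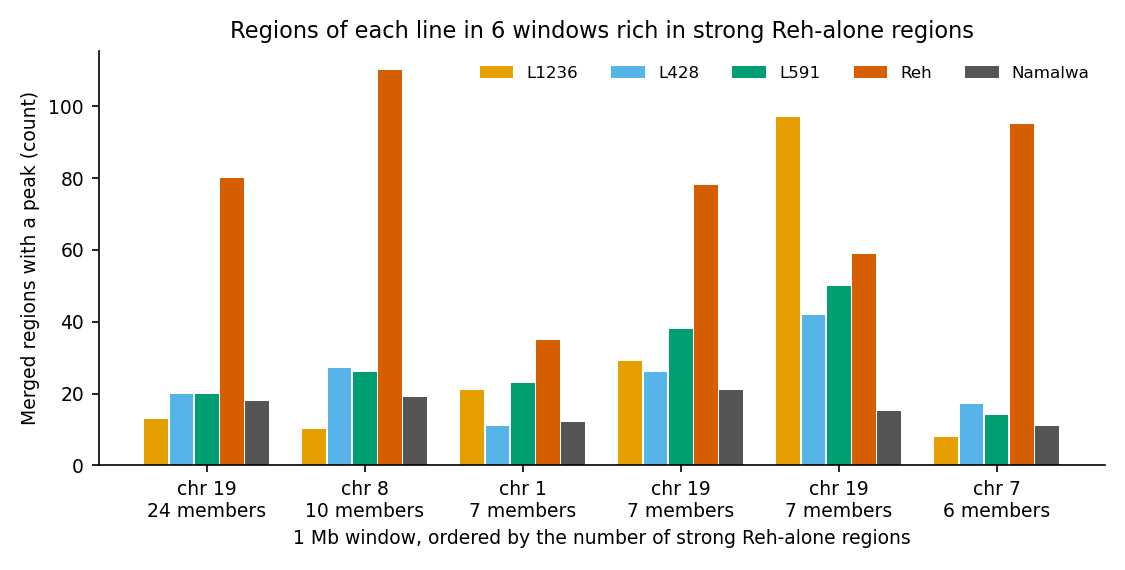
Bars give the number of merged regions with a peak of each line (y axis, count from 0) in 6 windows of 1 Mb (x axis, named by chromosome): the 5 with the most strong Reh-alone regions and the first, by chromosome and position, of 5 windows tied at 6 regions. Reh has the tallest bar in 5 of the 6, and L1236 has it, with 97, in the chromosome 19 window from 55 to 56 Mb.

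Among chromosomes, 14 had the highest share, with 43 of its 224 strong Reh regions found in Reh alone (19.2%, 14.3 to 24.97), beside 9.64% over all. Chromosome 21 followed with 13 of 77 (16.9%, 9.31 to 27.1) and chromosome 20 with 23 of 157 (14.6%, 9.52 to 21.2). Chromosome 12 had 29 of 334 (8.68%), so of the partners of the Reh fusion only chromosome 21 was above the overall share, with an interval that includes it. The lowest share was on chromosome 6, with 9 of 274 (3.28%, 1.51 to 6.14). It was 8.39% when the L591 list was left out, beside 12.8% over all in that setting. Without Namalwa it was 6.20%, beside 15.3% over all. L1236-alone shares were 25.7% on chromosome 14 and 17.4% on chromosome 6, beside 28.9% over all. Chromosome 14 was therefore not raised in L1236, whereas chromosome 6 was low in both lines. These intervals treat regions as independent, which neighbouring peaks are not.

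**Figure D5:**
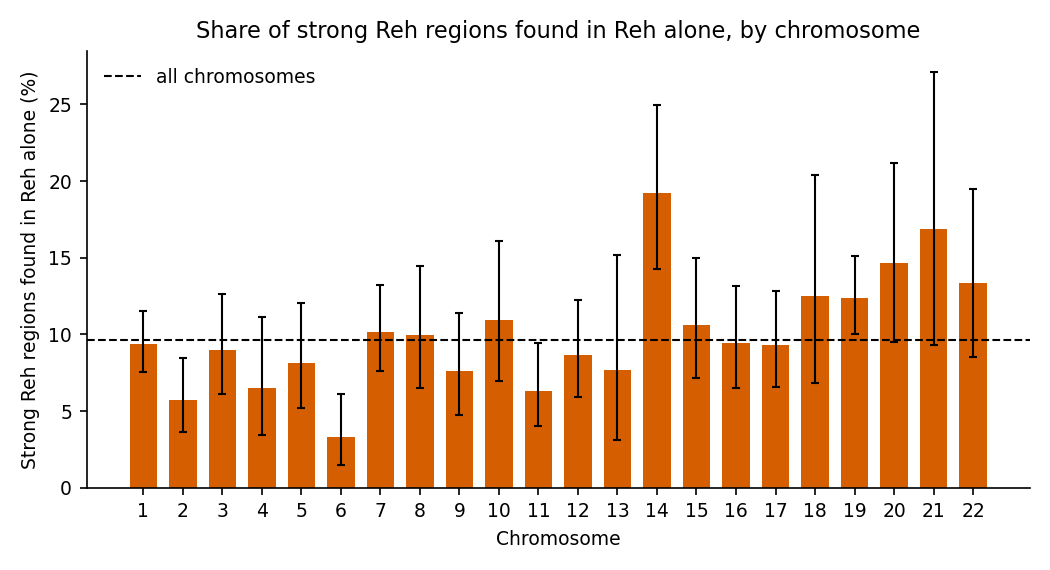
Bars give the percentage of strong Reh regions found in Reh alone on each chromosome (y axis from 0), with exact 95% intervals (counting error only), and the dashed line marks 9.64% for all chromosomes. Chromosome 14, at 19.2%, is highest and chromosome 6, at 3.28%, is lowest.

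Chromosome 19 had 84 of the 644 regions, as many as chromosome 1, and a share of 12.4% (10.0 to 15.1). Without runs of 10 or more Reh peaks, which held 26 of the 84, its share was 9.03%, below the 9.13% of all chromosomes treated the same way. The chromosome 14 share was 18.2% without those runs, 15.3% with peaks up to 1000 bp apart joined, and 26.8% without the Namalwa list. Chromosome 19 was thus not above the overall share once the long runs were left out, although 58 of its 84 regions lay outside them, whereas chromosome 14 stayed above it. The order of chromosomes 14 and 21 turned under 4 of the alternatives. Chromosome 21 had 28.6% without Namalwa, and without L428 it had 22.1% against 21.4% on chromosome 14. With the 50th percentile as threshold the shares were 41.2% and 34.4%, and by score per bp 14.5% and 13.7%.

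The chromosome 14 regions were concentrated towards the end of the long arm. Of the 43, 32 (74.4%) started beyond 90 Mb, against 64 of 181 strong shared Reh peaks of that chromosome (35.4%). Those at 90899841 to 90900890, 90908691 to 90909480 and 90909861 to 90911310 scored 9024, 6320 and 9560 in a run of 13 Reh peaks, where Namalwa had 1 peak and the Hodgkin lines none. A trio at 95198431 to 95199800, 95201331 to 95202040 and 95204161 to 95204660 scored 6968, 5280 and 5440 in a run of 8 Reh peaks, where Namalwa had 2 peaks and the Hodgkin lines none. In the run from 99104501 the regions at 99104501 to 99105780, 99105791 to 99106520 and 99109811 to 99111040 scored 8760, 4552 and 8136, and no other line had a peak in the run.

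The window from 105 to 106 Mb, near the last peaks of chromosome 14, held 6 of the regions. There Reh had 37 regions, L1236 18, L428 12, Namalwa 10 and L591 8. The strongest of the 6, at 105236301 to 105237340, scored 8536, and the others, which began at 105109401, 105116601, 105217901, 105229641 and 105355311, scored 4512 to 5560. The immunoglobulin heavy chain genes are known to lie near this end of chromosome 14, but without an hg18 annotation their limits were not set against these regions.

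Position near the first or last listed peak of a chromosome, which need not be its end, was also common over the whole set. Of the 644, 160 (24.8%, 21.6 to 28.4) lay within 5 Mb of the first or last listed peak of their chromosome. The share was 14.1% (13.2 to 14.97) for strong shared Reh peaks, and 16.2% when these were weighted to the chromosomes of the Reh-alone regions. Reh-alone peaks under the threshold had 20.7%. In L1236 the order was not the same, with 7.54% of strong L1236-alone and 8.60% of strong shared peaks within that distance. In L428 the shares were 12.0% and 11.6% and in L591 10.2% and 9.61%. Whether the Reh difference exceeds that between libraries of 1 line cannot be known from 1 library.

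At the threshold itself, 6 regions had a score of 3792 and widths of 520 to 810 bp. Of these, chromosomes 1 (8747061 to 8747870), 11 (2363021 to 2363540), 13 (76798141 to 76798740) and 19 (63091841 to 63092460) had 1 each and chromosome 17 had 2 (43167761 to 43168410, and 52690601 to 52691220). Of those just outside, with a score of 3784, chromosome 5 (180566201 to 180566550) and chromosome 22 (44741101 to 44741460) had 1 each and chromosome 7 had 2 (73268431 to 73269090, and 73825921 to 73826520). The next, on chromosome 2 at 232257271 to 232257720, scored 3776. These 5 were 350 to 660 bp wide.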

How the data were processed

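The peak lists of 5 lines were used as the authors deposited them. Per the submitters' processing notes, the mapping had been done with Bowtie 1.00 on hg18, and reads were then elongated to 146 bp and put in bins of 10 bp, per the file columns. The deposited score of each peak is its area, a whole number divisible by 8 with no stated scaling to depth, so it was compared only within a list. Which peak caller made the lists, and at which threshold, is not given in the sources used here. Of the lists, 4 carry a mark of quality trimming that L1236 lacks. Positions are 1-based and inclusive.

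Peaks on chromosomes 1 to 22 were merged at a shared 1 bp, and the rule and all distances (bases between peaks) were computed with scipy 1.17.1, pandas 2.3.3 and numpy 2.4.6 in Python 3.11.15. The merging was tested on simulated lists. Shares have exact Clopper-Pearson 95% intervals. Read depth is unknown. The regions and all lists and comparisons were chosen with earlier results of these data known. Named regions are the 15 of highest score, the 5 widest, the 6 at the threshold score and the 5 just outside it. The 5 farthest from another line and the leaders of the 6 richest windows were also named. The chromosome 14 regions and the runs named were chosen after their values were seen. Planned comparisons with genes and motifs were not run, since no hg18 annotation or sequence was used here. Alternatives covered overlap, joining, width, threshold, list length, chromosome X and each list left out.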

Additional observations from a re-analysis of the deposited data

How the results depend on the processing

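Of 15 alternatives, 10 kept the count of 644 within 1.5 times. It was 979 with peaks set to 200 bp around the centre, 45 at the 90th percentile, 3328 at the 50th, 1313 with the upper 50% of each list and 1024 without Namalwa. In the order of these 5 settings, the share of strong Reh regions was 14.2%, 1.69%, 25.3%, 19.6% and 15.3%. It was 8.59% and 7.32% with peaks up to 200 and 1000 bp apart joined, 16.9% with lists of equal length, 10.7% without L1236, 10.9% without L428 and 12.8% without L591. A peak of another line lay within 10 kb of 48.5% and 38.7% of the regions with either joining, 69.8% with 200 bp peaks, 64.4% at the 90th percentile, 49.2% by score per bp, 34.5% with equal lists, 39.5% with the upper 50%, 50.5% without L591 and 43.0% without Namalwa. Within 2 and 50 kb the shares were 27.5% and 87.6%. Windows with 5 or more regions numbered 4 after joining at 1000 bp, 37 with 200 bp peaks, 1 at the 90th percentile, 215 at the 50th, 6 by score per bp, 55 with the upper 50%, 28 without L591, 49 without Namalwa and 40 at a window size of 5 Mb. The median width was 670 and 760 bp with either joining, 200 bp with peaks set to that width, 1080 bp at the 90th percentile, 420 bp at the 50th, 390 bp by score per bp, 680 bp with equal lists and 660 bp without Namalwa. With equal lists, 17.9% of the regions had another Reh peak within 2 kb in place of 64.6%. That setting kept 5643 peaks per line and gave 931 regions in place of 644. The share within 5 Mb of the first or last listed peak of the chromosome lay between 21.3% and 35.6% over the 15 alternatives. The causes of these shifts were not tested. Read depth limits every count by an unknown amount, since absence from a list can be a peak under its threshold. No paired analysis was possible because each line gave 1 library.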

Other observations

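Chromosome X lay outside the rule. It held 63 strong Reh regions, of which 1 (1.59%, exact 95% interval 0.0402 to 8.53, counting error only) was found in Reh alone, beside 9.64% on chromosomes 1 to 22.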
